A study of Mus musculus with 32 samples.

Results

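The 10 genes described here encode the enzymes of serine synthesis (Phgdh, Psat1 and Psph) and products of the ATF4 response (Asns, Chac1, Trib3, Atf4, Atf5, Ddit3 and Sesn2). They were picked by name, with earlier results of these data known, and all 10 were found among the 47643 gene IDs of the count table. RNA came from the liver and epididymal fat (eWAT) of male C57BL/6J mice (C57BL/6 in the labels), 10 weeks old, that were given corticosterone (Cort) or vehicle (Veh) in the drinking water. For 7 days they were kept on a normal protein diet (NPD, 20% of kcal as protein) or switched from it to a high protein diet (HPD, 60% of kcal as protein). The paper's methods state that all mice had eaten the NPD before, so the HPD groups alone had a recent change of diet. Each tissue thus has 4 groups, named Veh NPD, Cort NPD, Veh HPD and Cort HPD here, with n = 4 libraries each. The comparisons in liver leave out Veh HPD replicate 4, so that n = 3 in that group. Vehicle and Cort water both held ethanol, and the HPD replaced starch with whey protein at equal energy, so more protein and less carbohydrate cannot be told apart. The labels do not say whether liver and eWAT libraries with the same number came from the same mouse.

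Serine is built from an intermediate of glycolysis in steps catalysed by PHGDH (phosphoglycerate dehydrogenase, the committed step), PSAT1 (phosphoserine aminotransferase) and PSPH (phosphoserine phosphatase), and it feeds glycine, folate one-carbon units and cysteine. When amino acids run short or unfolded protein collects in the endoplasmic reticulum (ER), kinases phosphorylate the translation factor eIF2alpha, most translation slows, and the mRNA of Atf4 is translated more. ATF4 then drives genes for amino acid synthesis and uptake, among them the serine enzymes and Asns, and a stress arm that holds Ddit3 (which encodes CHOP), Trib3 and Chac1. Because ATF4 is set largely by translation, the level of its mRNA is only part of its control. Liver is known for breaking serine down and for taking it up from blood, and corticosterone binds the glucocorticoid receptor, which raises amino acid release and use.

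Libraries held 8933307 to 17447524 counts in liver and 9794683 to 18057936 in eWAT. Levels are given in CPM, a gene's counts relative to the library total, where totals were scaled by TMM factors set in each tissue on its own. A gene was called at a Benjamini-Hochberg adjusted p under 0.05 in edgeR's quasi-likelihood test across all genes tested in that tissue, and every adjusted p below comes from that test unless another is named. Hepatocyte markers summed to 89912 to 276653 CPM in the 15 liver libraries compared, and adipocyte markers to 29321 to 37699.7 CPM in the 16 eWAT libraries. Markers of other tissues were raised in some libraries. Liver Veh HPD replicate 4, the library left out, had the lowest hepatocyte sum of all 16 (40781 CPM) and 149.9 CPM of exocrine pancreas markers, which also reached 111 CPM in Veh HPD replicate 1. Skeletal muscle markers reached 459 CPM in liver Cort NPD replicate 3, and testis and epididymis markers 7172 CPM in eWAT Cort HPD replicate 4. Of 10 known glucocorticoid receptor targets tested in liver, Cort on NPD raised 1, Fkbp5 (2.23 on the log2 scale), and lowered 1, Tat (-1.25) (all genes: 6.84% and 5.79%). Cort on HPD lowered 3, Per1 (-1.59), Klf9 (-1.29) and Zbtb16 (-2.80) (all genes: 5.14%), and Fkbp5 was not called there (1.15, adjusted p = 0.19). Of 9 tested in eWAT, Cort raised 2 on NPD, Fkbp5 (1.74) and Mt2 (2.49), where 4.05% of all genes were higher. On HPD it raised 1, Mt2 (1.86), and lowered 2, Sgk1 (-1.14) and Zbtb16 (-1.24), where 3.46% of all genes were higher and 2.63% lower. Fkbp5 was not called on HPD in eWAT (0.60, adjusted p = 0.45).

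ATF4 and its C/EBP partners bind a composite site whose core reads TGATGNAA. Of the 10 genes, 2 had this core, on either strand, in the 250 bases before a RefSeq start (build GRCm38.p6), where 3.91% of all 27025 genes with such a window did. The sites of these 2 genes, Asns and Chac1, are shown. Ddit3, Trib3 and Atf5, which are also called in liver below, had no match in their windows. Any part of the core in the liver calls was not tested. Capitals mark the core or its reverse complement, and each line runs 5′ to 3′ on the strand of the gene.
Asns, chr6:7693215-7693242, minus strand, 23 bases before the start: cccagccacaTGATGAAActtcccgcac
Chac1, chr2:119351039-119351066, plus strand, 193 bases before the start, core on the opposite strand: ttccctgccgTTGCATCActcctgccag
No match in the other 8 genes says only that these letters are not in those windows.

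In liver, Ddit3, Chac1 and Trib3 of the stress arm fell with Cort on the HPD, and Asns and Atf5 rose with Cort on the NPD. The falls were measured against the same 3 Veh HPD libraries, and the Trib3 call was lost without replicate 2 of these (-0.54, adjusted p = 0.27). In eWAT, Phgdh was the gene called, and it rose with Cort on both diets. Atf4 itself, Psat1, Psph and Sesn2 were called in no comparison of either tissue. Of the 9 genes tested in liver (Phgdh was too low for a test), Cort on HPD called 3, all lower, where 9.89% of the 12391 genes tested were called and 5.14% were lower. Cort on NPD called 2 in liver, both higher (all genes: 12.6% called, 6.84% higher). HPD against NPD in Veh liver called 1, higher, where 0.169% of genes were called and 0.105% were higher. In Cort-treated mice the diets called 0 of the 9 in liver (all genes: 5.88%), and DESeq2 and limma voom also called 0. At an unadjusted p under 0.05 there were 2 of the 9, where 2644 of all 12391 genes were. The diet by Cort interaction in liver called 0 of the 9 with edgeR (all genes: 0.113%), with 6 at an unadjusted p under 0.05 (all genes: 1496 of 12391). DESeq2 called Ddit3 there and limma voom called 0. By edgeR, the effects of Cort on NPD and HPD were thus not shown to differ in liver. Of the 10 genes tested in eWAT, Cort called 1 on NPD and 1 on HPD, both times Phgdh and higher, where 7.98% and 6.09% of the 15187 genes tested were called and 4.05% and 3.46% were higher. In eWAT the interaction called 0 by all 3 tools (all genes: 0.0132%), with 0 at an unadjusted p under 0.05 (all genes: 784 of 15187). Diet called 0 in Veh and 0 in Cort eWAT by edgeR, DESeq2 and limma voom (all genes: 0.0593% and 0.487%). At an unadjusted p under 0.05 there were 4 and 2 genes, where 1219 and 1490 of all 15187 genes were. The median log2 fold change of the tested genes was 0.13 for Cort on HPD in liver and 1.42 for HPD in Veh liver, where the medians over all genes were -0.00 and 0.00. Without liver Veh HPD replicate 2, which held the most Ddit3 and Trib3 of the 15, Cort on HPD called 2 and HPD in Veh called 0. With all 16 liver libraries, Cort on NPD called 1, Cort on HPD 3 and HPD in Veh 0. In bulk tissue, fewer cells of a type and less RNA per cell cannot be told apart.

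**Figure D1:**
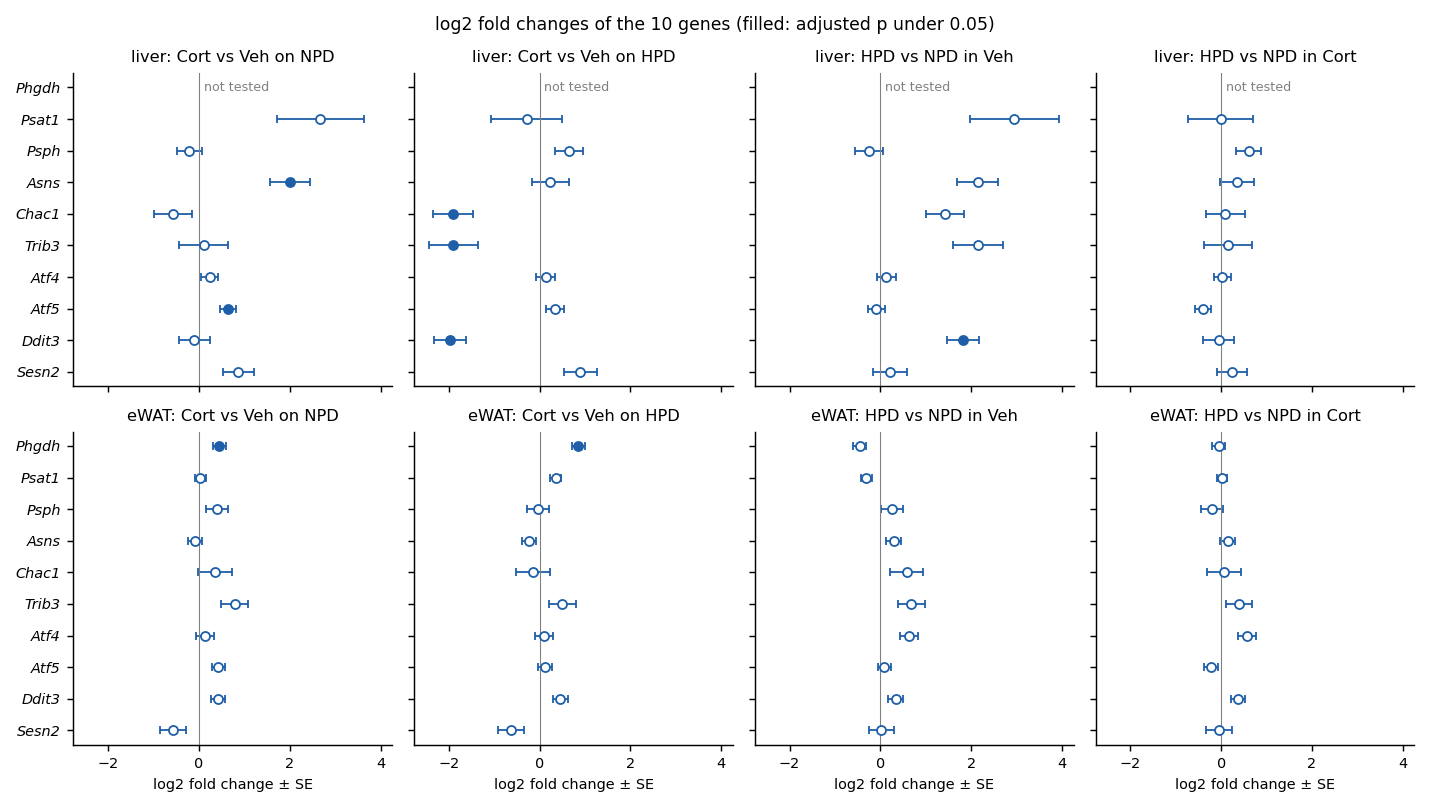
Log2 fold change (x axis, with its SE as bars) of each of the 10 genes in 4 comparisons, liver above and eWAT below, with filled points for an adjusted p under 0.05 and Phgdh not tested in liver. In liver the filled points are Asns and Atf5 for Cort on NPD, Chac1, Trib3 and Ddit3 for Cort on HPD and Ddit3 for HPD in Veh, and in eWAT they are Phgdh for Cort on either diet.

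Phgdh, the committed enzyme of serine synthesis (ENSMUSG00000053398, chromosome 3 from 98313170 to 98339990, minus strand, as all positions here in GRCm38), was high in eWAT and near absent from liver. In eWAT its level was 81.7, 104, 71.4 and 73.8 CPM in the Veh NPD libraries and 121, 113, 116 and 102 CPM in Cort NPD. On the HPD it was 49.6, 66.9, 57.3 and 67.7 CPM in Veh and 133, 112, 97.1 and 92.3 CPM in Cort. Every Cort HPD library lay above every Veh HPD library, while on the NPD the lowest Cort library lay just under the highest Veh library. The rise with Cort was 0.85 (SE 0.14, adjusted p = 3.1e-04) on the log2 scale on HPD and 0.45 (SE 0.14, adjusted p = 0.047) on NPD, and the difference between these effects, 0.40 (adjusted p = 0.95), was not called. The Veh groups also stood apart, with all 4 Veh HPD libraries below all Veh NPD libraries, but the diet effect in Veh did not pass (-0.46, adjusted p = 0.28), and in Cort-treated mice it was -0.06 (adjusted p = 0.94). The rise on HPD was called in every one of the 16 fits that left out a library, with 0.92 (adjusted p = 1.5e-04) without Cort HPD replicate 4, the library with epididymis markers. On NPD, 12 of the 16 such fits lost the call (adjusted p up to 0.17), and with library totals in place of TMM factors it was 0.36 (adjusted p = 0.12). Red blood cell markers summed to 5251 to 9273 CPM in Veh HPD and 12684 to 25856 CPM in Cort HPD eWAT, and adipocyte markers to 29321 to 37399.6 and 29618 to 35558 CPM. Hepatocyte markers also stood higher without overlap in Cort HPD (1297 to 2486 against 2502 to 2975 CPM), and brown adipocyte (19.7 to 51.2 against 8.55 to 9.48 CPM) and T cell markers (5.59 to 8.24 against 2.53 to 4.76 CPM) lower. On NPD, the markers that did not overlap were lower with Cort, brown adipocytes (34.7 to 42.3 against 17.5 to 22.6 CPM), T cells (7.23 to 11.9 against 1.56 to 4.14 CPM) and skeletal muscle (62.3 to 199 against 10.3 to 23.8 CPM). Their part in the rise was not tested.

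In liver, Phgdh had 0 counts in all 4 Veh NPD libraries, where 3 counts would be worth 0.237 to 0.318 CPM, and 0 to 4 counts in the 15 libraries compared. Changes of Phgdh in liver were therefore not detectable at this depth. The left-out Veh HPD replicate 4 held 19 counts of Phgdh (0.948 CPM), the highest of the 16 liver libraries.

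Psat1, which catalyses the next step (ENSMUSG00000024640, chromosome 19 from 15904678 to 15947337, minus strand), was likewise a gene of eWAT more than of liver in CPM. In eWAT it was at 75.7 to 125 CPM over the 16 libraries. Its level was 101, 75.7, 85.9 and 92.0 CPM in Veh HPD and 114, 125, 110.1 and 104 CPM in Cort HPD eWAT, with no overlap between the groups. That difference, 0.36 (SE 0.12, adjusted p = 0.074), did not pass the threshold with edgeR, while DESeq2 gave an adjusted p of 0.040. Psat1 on the NPD was at 99.3 to 118 CPM in Veh and 99.8 to 124 CPM in Cort, a log2 fold change of 0.03 (adjusted p = 0.94).

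In liver Psat1 was close to the detection limit, with counts of 5, 2, 0 and 1 in Veh NPD, 29, 28 and 4 in Veh HPD, 6, 6, 4 and 53 in Cort NPD and 13, 28, 4 and 21 in Cort HPD. The Veh NPD libraries were the low group, and Cort NPD replicate 4 stood above all others. The log2 fold changes against Veh NPD were large and imprecise, 2.67 (SE 0.95, adjusted p = 0.076) for Cort and 2.95 (SE 0.99, adjusted p = 0.30) for HPD, and neither was called by edgeR. DESeq2 called the former (2.71, adjusted p = 0.019), as did edgeR without Veh HPD replicate 3 (2.67, adjusted p = 0.0495), a library outside that comparison. Without Cort NPD replicate 4 the value for Cort was 1.22 (adjusted p = 0.45). Exocrine pancreas markers summed to 4.26 CPM in that library and to 0.154 to 0.984 CPM in the other Cort NPD libraries, and their part in the Psat1 level was not tested. The left-out Veh HPD replicate 4 had 364 counts of Psat1 (18.2 CPM), and with it the effect of HPD in Veh was 4.95 (adjusted p = 0.14).

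Psph, which releases serine in the last step (ENSMUSG00000029446, chromosome 5 from 129765558 to 129787449, minus strand), was called in no comparison. It ranged over 2.64 to 8.72 CPM in liver and 9.68 to 23.1 CPM in eWAT. All 4 liver Cort HPD libraries (5.60, 8.72, 5.97 and 6.09 CPM) were above all Cort NPD libraries (4.08, 3.28, 4.62 and 5.29 CPM), yet the diet effect in Cort-treated mice, 0.61 (SE 0.28, adjusted p = 0.21), did not pass. Exons of Psph overlap those of Cct6a on the opposite strand, and Cct6a did not pass in any liver or eWAT comparison.

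**Figure D2:**
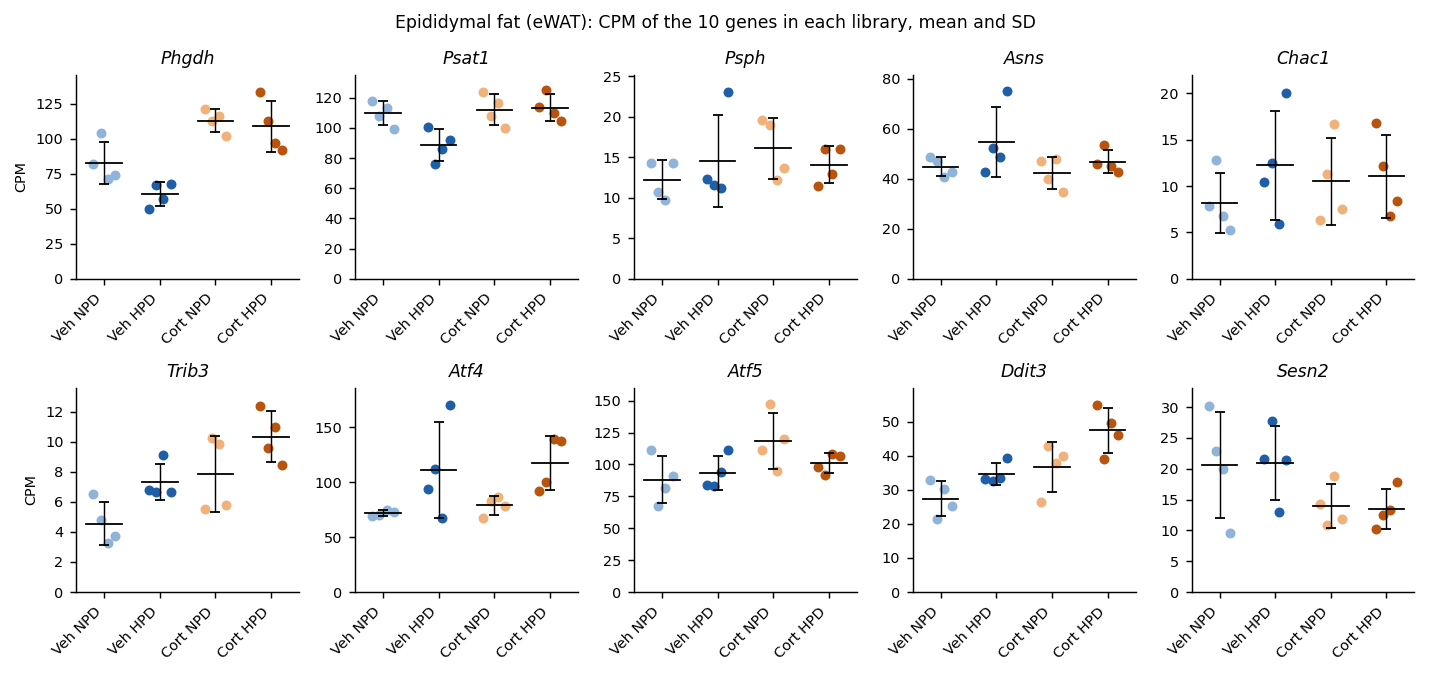
CPM of the 10 genes (y axis, each panel on its own scale) in the 16 eWAT libraries by group (x axis), 1 point per library, with the mean as a line and the SD as a bar. Phgdh lay at 92.3 to 133 CPM in Cort HPD and 49.6 to 67.7 CPM in Veh HPD, and Psat1 at 104 to 125 CPM against 75.7 to 101 CPM.

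Asns, which makes asparagine and is a textbook target of ATF4 (ENSMUSG00000029752, chromosome 6 from 7675169 to 7693254, minus strand), was lowest in liver when mice had neither Cort nor the HPD. Its level was 1.98, 0.637, 0.519 and 0.761 CPM in Veh NPD and 4.23, 1.81, 4.69 and 5.29 CPM in Cort NPD liver. It was 2.46, 4.06 and 6.76 CPM in Veh HPD and 3.22, 6.63, 4.28 and 6.46 CPM in Cort HPD. Veh NPD replicate 1 was the high library of its group and lay inside the range of Cort NPD, while all Veh HPD libraries lay above all Veh NPD libraries. These levels rest on 6 to 114 counts per library. Exocrine pancreas markers, with a sum of 14.0 CPM in Veh NPD replicate 1 and 0.0845 to 3.08 CPM in the other Veh NPD libraries, were at 111, 0.346 and 0.946 CPM in Veh HPD replicates 1, 2 and 3. Their part in the Asns levels was not tested.

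With Cort on NPD, Asns rose by 2.01 (SE 0.44, adjusted p = 0.0041) on the log2 scale, and the call held in all 15 fits that left out a library. Between Veh NPD and Cort NPD liver, hepatocyte markers went from 100211 to 133159 to 142297 to 153058 CPM, adipocyte markers from 101 to 135 to 137 to 169, macrophage markers from 183 to 231 to 72.2 to 146, B cell markers from 2.65 to 5.14 to 0.681 to 1.64 and T cell markers from 0.761 to 2.29 to 0.0770 to 0.426 CPM, each without overlap, and their part in the Asns and Atf5 results was not tested. With HPD in Veh the change was 2.14 (SE 0.46, adjusted p = 0.065), but did not pass with edgeR. DESeq2 called it (2.16, adjusted p = 0.0016), as did edgeR without Veh NPD replicate 1 (2.77, adjusted p = 0.022). Leaving out replicate 1 of Veh HPD (2.45, adjusted p = 0.049) or of Cort HPD also gave a call (2.14, adjusted p = 0.045). These comparisons share the Veh NPD libraries. The other log2 fold changes of Asns in liver were 0.23 (adjusted p = 0.77) for Cort on HPD and 0.36 (adjusted p = 0.64) for HPD in Cort. The left-out Veh HPD replicate 4 held 584 counts of Asns (29.1 CPM), more than any other liver library. With it in the fit, HPD in Veh was 3.42 (adjusted p = 0.090), Cort on HPD turned to -1.04 (adjusted p = 0.33), and Cort on NPD, which does not use that group, lost its call (2.02, adjusted p = 0.12).

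In eWAT, Asns was at 34.5 to 75.1 CPM over all groups and no comparison called it. Cort gave -0.08 (adjusted p = 0.85) on NPD and -0.23 (adjusted p = 0.47) on HPD there. The effect of Cort on NPD was larger in liver than in eWAT by 2.14 (SE 0.46, adjusted p = 0.0048) on the log2 scale, in a fit of both tissues in which 3.85% of 16482 genes were called. Asns was the 1 gene of the 10 called in that test, and 2.51% of all genes were higher in it.

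Atf4 (ENSMUSG00000042406, chromosome 15 from 80255184 to 80257541, plus strand) was called in no comparison at the mRNA level. In liver it ranged over 72.0 to 136 CPM in the 15 libraries, and its log2 fold changes were 0.24 and 0.13 for Cort and 0.13 and 0.03 for the HPD (adjusted p from 0.46 to 0.95). With all 16 liver libraries the effect of Cort on HPD was -0.20, and Veh HPD replicate 4 held 210.3 CPM. In eWAT, Atf4 was higher on the HPD in most libraries. Its level was 69.1, 70.1, 75.1 and 73.0 CPM in Veh NPD and 93.6, 112, 67.5 and 170.3 CPM in Veh HPD, where replicate 3 was as low as the NPD group. It was 67.2, 83.3, 86.5 and 78.5 CPM in Cort NPD and 92.4, 100.1, 139 and 138 CPM in Cort HPD, and those groups did not overlap. The differences, 0.63 (SE 0.20, adjusted p = 0.33) in Veh and 0.57 (SE 0.20, adjusted p = 0.31) in Cort, did not pass over all genes. The first was called without Veh HPD replicate 3 (0.80, adjusted p = 0.028) and the latter in a fit of the Cort groups alone (0.57, adjusted p = 0.040).

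Atf5, a transcription factor related to ATF4 and linked to the mitochondrial stress response (ENSMUSG00000038539, chromosome 7 from 44812256 to 44816658, minus strand), rose with Cort in liver on NPD. It was at 198, 206, 252 and 218 CPM in Veh NPD and 337, 453, 280.3 and 299.6 CPM in Cort NPD liver, and every Cort library lay above every Veh library. The log2 fold change was 0.65 (SE 0.18, adjusted p = 0.018). Without Cort NPD replicate 2, the highest library, it was 0.48 (adjusted p = 0.092), and the call was also lost without Veh NPD replicate 1 or 2. On the HPD, levels were 187, 237 and 193 CPM in Veh and 176, 296, 279.6 and 288 CPM in Cort, where replicate 1 was low, and the change was 0.34 (adjusted p = 0.30). Atf5 in eWAT ranged over 67.8 to 147 CPM, with 0.43 (adjusted p = 0.076) for Cort on NPD, which 3 of the 16 fits without 1 library called. Exons of Atf5 overlap those of Nup62 and Il4i1 on the opposite strand, and the strand setting of the counting is not given in the sources used here. Nup62 had a log2 fold change of 0.55 (adjusted p = 0.069) for Cort on NPD in liver.

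Ddit3 encodes CHOP, the transcription factor of the stress arm that is tied to cell death (ENSMUSG00000025408, chromosome 10 from 127290774 to 127296288, plus strand). Its liver level was highest in Veh HPD. The Veh NPD libraries held 8.54, 8.07, 7.62 and 7.10 CPM and the Veh HPD libraries 16.9, 52.4 and 14.0 CPM. With Cort, they held 5.54, 9.06, 5.07 and 9.48 CPM on NPD and 7.21, 7.09, 6.73 and 7.05 CPM on HPD. All 3 Veh HPD libraries were above all other libraries compared, with replicate 2 far above the rest.

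With Cort, against Veh HPD, Ddit3 fell by 1.97 on the log2 scale (SE 0.35, adjusted p = 0.0017), and this call held in all 15 fits that left out a library. Without Veh HPD replicate 2 the log2 fold change was -1.12 (adjusted p = 0.0052). Against Veh NPD, the HPD raised Ddit3 in Veh mice by 1.81 (SE 0.35, adjusted p = 0.048), a call near the threshold that 13 of the 15 fits without 1 library lost. Without Veh HPD replicate 2 it was 0.97 (adjusted p = 0.15). These comparisons share the Veh HPD libraries. Between Veh NPD and Veh HPD liver, hepatocyte markers were lower on HPD without overlap (100211 to 133159 against 89912 to 95747 CPM). B cell markers were higher on HPD without overlap (2.65 to 5.14 against 5.88 to 19.0 CPM). Their part in the results for HPD in Veh liver, those of Asns and Atf3 among them, was not tested. On the NPD, Cort changed Ddit3 by -0.10 (adjusted p = 0.89), and in Cort-treated mice the HPD changed it by -0.06 (adjusted p = 0.95). The diet by Cort interaction for Ddit3, -1.87 (SE 0.49, adjusted p = 0.16), did not pass with edgeR. It called 0 of the 9 genes there (all genes: 0.113%), with 6 at an unadjusted p under 0.05 (all genes: 1496 of 12391). DESeq2 called 1 gene, Ddit3 (-1.86, adjusted p = 0.020), and limma voom 0.

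The left-out Veh HPD replicate 4 held 80.5 CPM of Ddit3, the highest of the 16. With it in the fit, Cort on HPD was -2.53 (adjusted p = 0.0034) and HPD in Veh 2.39 (adjusted p = 0.058). In Veh HPD replicate 2, 5 of the 6 exocrine pancreas markers were at 0 and their sum was 0.346 CPM, while skeletal muscle markers summed to 41.7 CPM there and to 1.62 and 9.46 CPM in the other Veh HPD libraries compared. Hepatocyte markers summed to 89912 to 95747 CPM in Veh HPD and 165426 to 276653 CPM in Cort HPD, and macrophage markers to 155 to 197 and 85.7 to 169 CPM, which overlap. Red blood cell markers were higher in Cort HPD without overlap (1913 to 3469 against 5271 to 7622 CPM), as were brown adipocyte markers (2.30 to 9.37 against 14.8 to 21.1 CPM). B cell markers (5.88 to 19.0 against 0.918 to 4.42 CPM) and T cell markers (0.837 to 2.23 against 0.0581 to 0.612 CPM) were lower without overlap. Their part in the Ddit3, Trib3 and Chac1 results was not tested. Exons of Ddit3 overlap those of Mars and Gm4189 on the opposite strand. On the same strand they overlap those of another protein-coding entry named Ddit3 (ENSMUSG00000116429), which is not in the count table. Mars changed by -0.01 (adjusted p = 0.99) and Gm4189 by -1.28 (adjusted p = 0.25) with Cort on HPD in liver.

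In eWAT, the changes of Ddit3 with Cort were positive and not called. It was at 32.9, 21.5, 30.2 and 25.1 CPM in Veh NPD, 26.3, 42.8, 37.9 and 39.9 CPM in Cort NPD, 33.1, 32.6, 33.5 and 39.2 CPM in Veh HPD and 54.9, 39.1, 49.7 and 46.0 CPM in Cort HPD. The Cort groups had the higher means on each diet, but their ranges overlapped those of Veh. Cort gave 0.42 (adjusted p = 0.13) on NPD, called in 1 of the 16 fits without 1 library, and 0.46 (adjusted p = 0.10) on HPD. The effect of Cort on HPD was lower in liver than in eWAT, with a difference of -2.46 on the log2 scale (adjusted p = 1.4e-04), and without liver Veh HPD replicate 2 it was -1.63 (adjusted p = 7.0e-04). That test called 2 of the 10 genes, Ddit3 and Trib3, both lower in liver, where 3.12% of all genes were called and 2.01% were lower. The diet effect under Cort differed between the tissues for 0 of the 10 with edgeR, DESeq2 and limma voom (all genes: 1.23%). At an unadjusted p under 0.05 there were 0, where 2517 of all 16482 genes were.

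Trib3, a pseudokinase that is induced by CHOP and ATF4 and dampens their signal (ENSMUSG00000032715, chromosome 2 from 152337422 to 152344032, minus strand), was, like Ddit3, highest in liver Veh HPD replicate 2. Its level was 7.03, 9.24, 11.4 and 7.78 CPM in Veh NPD and 20.3, 88.0 and 10.7 CPM in Veh HPD. With Cort it was 7.85, 12.1, 9.61 and 8.63 CPM on NPD and 7.04, 12.4, 9.03 and 13.6 CPM on HPD. Veh HPD replicate 2 stood far above all other libraries compared, and replicate 3 lay within the range of the other groups. Cort on HPD gave -1.90 (SE 0.55, adjusted p = 0.048), a call that 13 of the 15 fits without 1 library and 4 of the 8 other fits lost. Without Veh HPD replicate 2 it was -0.54 (adjusted p = 0.27). With the left-out replicate 4 (87.4 CPM) in the fit it was -2.28 (adjusted p = 0.019). The HPD in Veh liver gave 2.15 (SE 0.56, adjusted p = 0.19), not called by edgeR. Without Veh HPD replicate 2 it was 0.80 (adjusted p = 0.37), while it was called without Veh HPD replicate 3 (2.60, adjusted p = 0.023) and by DESeq2 (2.15, adjusted p = 0.017).

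In eWAT, Trib3 was at 3.23 to 12.3 CPM, with group means ± SD (n = 4) of 4.55 ± 1.44 CPM in Veh NPD, 7.30 ± 1.21 CPM in Veh HPD, 7.85 ± 2.55 CPM in Cort NPD and 10.3 ± 1.70 CPM in Cort HPD. The means stood in that ascending order, and no comparison between the groups passed (adjusted p from 0.11 to 0.71). The effect of Cort on HPD was lower in liver than in eWAT, with a difference of -2.43 on the log2 scale (adjusted p = 0.014), and this call was lost without liver Veh HPD replicate 2 (-1.10, adjusted p = 0.16).

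Chac1 encodes an enzyme that breaks down glutathione and is a marker of ATF4 and CHOP activity (ENSMUSG00000027313, chromosome 2 from 119351229 to 119354381, plus strand). It was at 6.25, 12.7 and 15.1 CPM in Veh HPD and 3.73, 2.21, 2.14 and 4.01 CPM in Cort HPD liver, with no overlap. On the NPD it was at 6.09, 2.65, 1.13 and 6.85 CPM in Veh, a wide spread, and 2.39, 2.50, 3.33 and 3.04 CPM in Cort. Unlike Ddit3 and Trib3, Chac1 was highest in Veh HPD replicate 3, not replicate 2.

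With Cort on HPD, Chac1 fell by 1.91 on the log2 scale (SE 0.43, adjusted p = 0.0088). This call held in all 15 fits that left out a library (log2 fold change from -2.22 to -1.64, adjusted p up to 0.045) and in the 8 other fits, with -1.78 (adjusted p = 0.013) for all 16 libraries. On the NPD, Cort gave -0.58 (adjusted p = 0.42), and the interaction of -1.33 (adjusted p = 0.39) was not called. In Veh liver, HPD against NPD gave 1.42 (SE 0.43, adjusted p = 0.23), also not called. In eWAT Chac1 ranged over 5.30 to 20.0 CPM, and no comparison passed (log2 fold changes from -0.15 to 0.58).

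Sesn2 encodes sestrin 2, a leucine sensor that holds back mTORC1 (ENSMUSG00000028893, chromosome 4 from 132492032 to 132510501, minus strand), and its log2 fold changes with Cort were positive in liver and negative in eWAT. Liver levels were 2.85, 3.29, 1.90 and 1.94 CPM in Veh NPD and 5.93, 3.36, 4.16 and 4.68 CPM in Cort NPD, with all Cort libraries above all Veh libraries. On the HPD they were 2.68, 3.98 and 2.09 CPM in Veh and 2.37, 7.79, 7.50 and 3.64 CPM in Cort, which overlapped. The log2 fold changes with Cort in liver were 0.87 (adjusted p = 0.10) on NPD and 0.89 (adjusted p = 0.13) on HPD, and those in eWAT -0.57 (adjusted p = 0.26) and -0.63 (adjusted p = 0.22). Sesn2 was thus called in neither tissue. Without Cort HPD replicate 1 both liver effects were called (0.87, adjusted p = 0.0499, and 1.13, adjusted p = 0.034), and without eWAT Veh NPD replicate 4 so was the eWAT effect on NPD (-0.81, adjusted p = 0.049). The difference between tissues did not pass either, at 1.48 (adjusted p = 0.073) on NPD and 1.49 (adjusted p = 0.088) on HPD, although DESeq2 called both (adjusted p = 0.045 and 0.044).

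**Figure D3:**
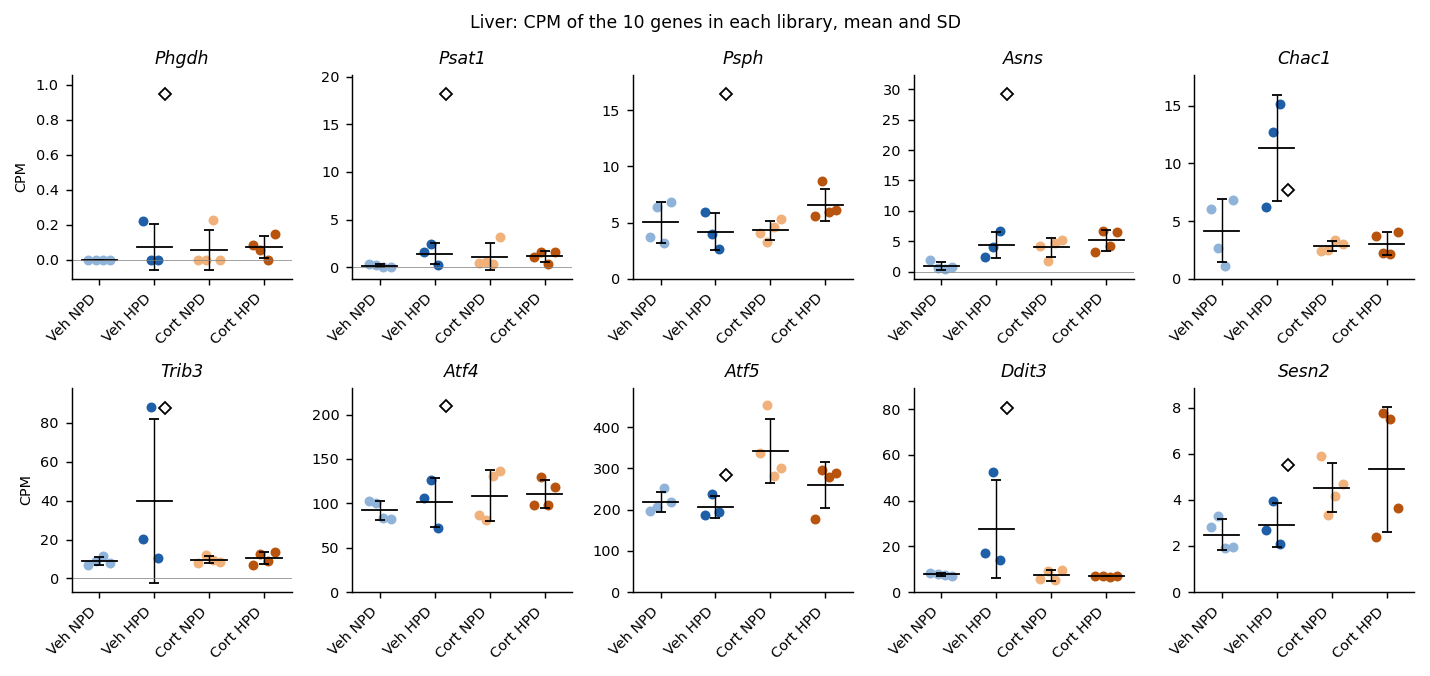
CPM of the 10 genes (y axis, each panel on its own scale) in the liver libraries by group (x axis), 1 point per library, with the mean as a line and the SD as a bar over the libraries compared, and the left-out Veh HPD replicate 4 as an open diamond. Ddit3 in Veh HPD lay at 14.0 to 52.4 CPM, above the 5.07 to 9.48 CPM of the other groups, and the open diamond is the highest point for Phgdh, Psat1, Psph, Asns, Atf4 and Ddit3.

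Other genes tied to ATF4 were read from a list of 19 outside the 10, of which 16 were tested in liver. This list and those below were chosen with earlier results of these data known, so their shares of calls are not an independent test. With Cort on HPD, 7 of them fell and 0 rose, where 5.14% of all genes fell, and their median log2 fold change was -0.79, against -0.00 over all genes. Without Veh HPD replicate 2, 5 fell and the median was -0.35. Herpud1, which helps clear misfolded ER protein, was at 398, 494 and 271 CPM in Veh HPD and 118, 158, 119 and 161 CPM in Cort HPD, which is -1.48 (SE 0.21, adjusted p = 1.0e-04) on the log2 scale. The groups did not overlap. Next by p came Ppp1r15a, which brings phosphorylated eIF2alpha back down (-1.42, SE 0.25, adjusted p = 6.2e-04), and Cebpb, a partner of ATF4 (-1.44, SE 0.27, adjusted p = 0.0021). Gdf15, a stress hormone, was at 81.3, 87.0 and 17.6 CPM in Veh HPD and 7.04, 11.9, 14.9 and 12.5 CPM in Cort HPD, a log2 fold change of -2.42 (adjusted p = 0.012). Its Veh HPD replicates 1 and 2 were the high ones, and the effect was lower in liver than in eWAT, with a difference of -3.93 (adjusted p = 3.2e-04). Atf3, a stress-induced repressor, was at 1.42, 0.531, 0.693 and 0.254 CPM in Veh NPD and 4.85, 15.7 and 2.09 CPM in Veh HPD, and it was the 1 gene of this list called for HPD in Veh (3.33, SE 0.61, adjusted p = 0.047). Of 15 fits without 1 library, 11 lost the Atf3 call. In Cort HPD, Atf3 was at 1.87, 1.40, 1.07 and 1.63 CPM, a log2 fold change of -2.32 (adjusted p = 0.013) against Veh HPD.

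On the NPD, Cort called 3 of the 16 in liver, 1 higher and 2 lower, where 6.84% of all genes were higher and 5.79% lower. Gpt2, an alanine aminotransferase, rose (0.61, SE 0.17, adjusted p = 0.021), while Cebpb (-0.93) and Ppp1r15a (-0.73) fell. In Cort-treated mice the HPD lowered 1, where 2.8% of all genes fell, Herpud1 (-0.89, adjusted p = 0.010). The interaction called 0 of the 16 by edgeR and by limma voom and 3 by DESeq2. At an unadjusted p under 0.05 there were 7, where 1496 of all 12391 genes were. By edgeR the effects of Cort on NPD and HPD were thus not shown to differ for this list. In eWAT, where 18 of the 19 were tested, Cort raised 2 on NPD (all genes: 4.05%), Stc2, a secreted stanniocalcin (1.22, adjusted p = 3.2e-04), and Ppp1r15a (1.27, adjusted p = 9.3e-04). On HPD it raised Stc2 (1.31, adjusted p = 1.5e-04) and Vldlr (0.46, adjusted p = 0.039) and lowered Jdp2 (-0.65, adjusted p = 0.043), where 3.46% of all genes were higher and 2.63% lower. For Ppp1r15a the effect of Cort was lower in liver than in eWAT, with a difference of -1.96 on NPD (adjusted p = 5.5e-04) and -1.98 on HPD (adjusted p = 6.8e-04).

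**Figure D4:**
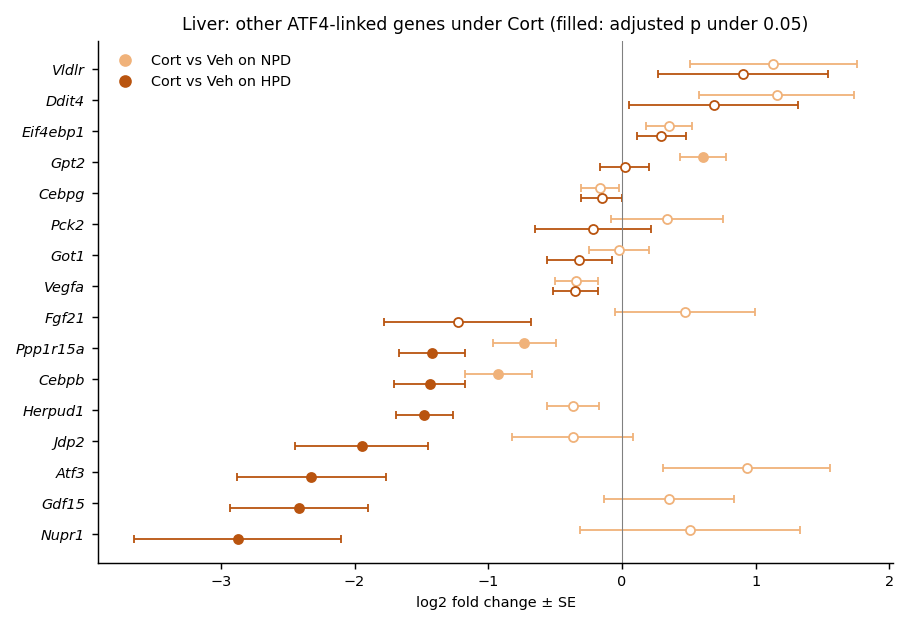
Log2 fold change with Cort in liver (x axis, with its SE as bars) of the 16 other ATF4-linked genes tested, on NPD (light) and on HPD (dark), with filled points for an adjusted p under 0.05. On HPD 7 genes are filled and all lie below 0, and on NPD Gpt2 is filled above 0 and Cebpb and Ppp1r15a below 0.

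Liver also breaks serine and glycine down. Of 11 tested genes of serine and glycine breakdown in liver, 6 were called with Cort on NPD, 2 higher and 4 lower (all genes: 6.84% and 5.79%), and 4 on HPD, 2 higher and 2 lower (all genes: 4.75% and 5.14%). Sdsl, a serine dehydratase-like enzyme, rose on NPD (1.34, SE 0.18, adjusted p = 2.6e-05) and HPD (0.90, adjusted p = 0.0039), as did Gldc of the glycine cleavage system (0.57, adjusted p = 0.014, and 0.53, adjusted p = 0.040). Agxt, which transfers the amino group of serine or alanine to glyoxylate, fell from 119 to 145 CPM in Veh NPD to 22.9 to 40.5 CPM in Cort NPD (-2.11, SE 0.17, adjusted p = 2.5e-08), and on HPD the log2 fold change was -1.30 (adjusted p = 5.7e-05). On NPD, Gcat of threonine breakdown (-0.78, adjusted p = 0.0016) and Cth, which makes cysteine (-0.88, adjusted p = 0.017), fell as well, and on HPD Cbs, which joins serine to homocysteine, fell (-0.64, adjusted p = 0.026). The diet by Cort interaction in liver called 0 of the 11 by edgeR (all genes: 0.113%), DESeq2 and limma voom. At an unadjusted p under 0.05 there were 3, where 1496 of all 12391 genes were. The effects of Cort on NPD and HPD were thus not shown to differ for this list. The HPD in Cort-treated liver raised 3 of the 11, where 3.08% of all genes rose, Agxt (1.09, adjusted p = 5.1e-04), Cth (1.37, adjusted p = 0.0016) and Gcat (0.63, adjusted p = 0.020). In eWAT, 1 of 8 tested was called with Cort on each diet (all genes: 7.98% and 6.09%), Cbs, and it rose on NPD (1.06, adjusted p = 0.018) and HPD (1.19, adjusted p = 0.0084). The effect of Cort on Cbs was lower in liver than in eWAT on both diets, with differences of -1.53 (adjusted p = 0.0041) and -1.87 (adjusted p = 6.1e-04).

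Folate one-carbon genes take up the carbon that serine gives. Of 10 tested in eWAT, Cort raised 2 on NPD and 3 on HPD and lowered 0, where 4.05% and 3.46% of all genes rose. The other members were not called, and the median log2 fold change of the 10 was 0.07 on NPD and 0.37 on HPD (all genes: -0.02 and -0.00). Aldh1l1, a cytosolic folate dehydrogenase, went from 83.0, 68.9, 77.9 and 73.6 CPM in Veh NPD to 198, 174, 205 and 169.7 CPM in Cort NPD (1.30, SE 0.17, adjusted p = 1.9e-05), and rose on HPD (1.11, adjusted p = 1.6e-04). Mthfd2, a mitochondrial folate enzyme and ATF4 target, was at 16.1, 13.6, 8.81 and 9.15 CPM in Veh HPD and 20.4, 29.6, 21.5 and 34.5 CPM in Cort HPD (1.15, SE 0.22, adjusted p = 0.0012), with 0.72 (adjusted p = 0.036) on NPD. In liver, edgeR and limma voom called 0 of the 10 tested in the 5 comparisons and DESeq2 made 2 calls, with 10 gene results at an unadjusted p under 0.05. Of all 12391 genes, 3308 and 3008 were at such a p for Cort on NPD and on HPD. For HPD in Veh and in Cort these were 1165 and 2644, and for the interaction 1496.

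Amino acid carriers and tRNA synthetases form a further arm of the ATF4 response. Of 9 carriers tested in eWAT, Cort raised 2 on NPD and raised 3 and lowered 1 on HPD (all genes: 4.05% higher on NPD, 3.46% higher and 2.63% lower on HPD). Slc3a2, the heavy chain of several amino acid exchangers, was at 128, 179, 138 and 188 CPM in Veh NPD and 317, 359.5, 373 and 301 CPM in Cort NPD (1.09, SE 0.17, adjusted p = 2.1e-04), and rose on HPD too (1.19, adjusted p = 1.1e-04). Slc1a5, a carrier of glutamine and serine, rose on both diets (0.47, adjusted p = 0.0073, and 0.51, adjusted p = 0.0056), and Slc43a1 fell on HPD (-1.70, adjusted p = 4.1e-04). The rise of Slc7a5 on HPD (4.17, adjusted p = 0.039) rested on Cort HPD replicate 4, the library with epididymis markers, since its Cort HPD levels were 2.34, 1.68, 8.04 and 84.6 CPM and without that library the change was 1.59 (adjusted p = 0.12). In liver, 1 of 8 tested transporters was called on each diet, a share near that of all genes (12.6% on NPD and 9.89% on HPD). These were the glycine carrier Slc6a9, higher on NPD (1.62, adjusted p = 7.8e-05), and Slc38a2, lower on HPD (-0.70, adjusted p = 0.041). Of 13 genes of tRNA charging and export, 2 were called with Cort in liver on NPD and 1 on HPD, also near the share of all genes. Xpot rose with Cort in liver on NPD (1.15, adjusted p = 3.3e-05) and HPD (0.94, adjusted p = 0.0012) and Gars on NPD (0.59, adjusted p = 0.017). With Cort in eWAT, 0 were called by edgeR, DESeq2 and limma voom (all genes by edgeR: 7.98% on NPD and 6.09% on HPD). At an unadjusted p under 0.05 there were 4 on NPD and 2 on HPD, where 3083 and 2872 of all 15187 genes were.

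To see which genes ran most like each called gene, all genes tested in a tissue were ordered by the mean absolute difference of log2 CPM, centred over the libraries. In liver, over 15 libraries and 12391 genes, Trib3 and Ddit3 were each the nearest to the other, at 0.344 on the log2 scale, where the mean deviation of Trib3 from its own mean was 0.543. Both were highest in Veh HPD replicate 2 (88.0 CPM of Trib3 and 52.4 CPM of Ddit3), and the part of that library in their closeness was not tested. The next nearest to Ddit3 were Atg14 (0.357) and Epb41l4aos (0.367), and to Trib3 mt-Rnr1 (0.382) and Coq8b (0.385). Among the genes nearest to Asns, whose own mean deviation was 0.935, were Sh3pxd2b (0.505) and Gm43966 (0.510). Chac1 was nearest to Pgm2 (0.428), Plk3 (0.436) and Smim22 (0.461), and Atf5 to Ltbr (0.132), Mapk14 (0.137) and Hmg20b (0.138). In eWAT, over 16 libraries and 15187 genes, Phgdh was nearest to Glrx3 (0.127), Usp10 (0.133) and Atp6v0e (0.133). These are descriptions over libraries that share group and depth.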

How the data were processed

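Liver and eWAT RNA of 32 libraries, 16 per tissue, had been prepared with a kit that reads the 3′ end of transcripts (QuantSeq FWD), so counts do not grow with transcript length. The authors deposited raw counts of reads per Ensembl gene ID, on build GRCm38 (mm10). The submitters' processing notes name R 4.0.3, limma and a further entry, R 3.46.0. The aligner, the annotation and the strand setting are not given in the sources used here. Of 47643 IDs, 47224 were given a symbol and 419 were not, and gene positions come from the annotation of the same build.

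The filterByExpr function of edgeR, with a minimum count of 10 and a total of 15, left 12391 genes in liver, 15187 in eWAT and 16482 in a joint table. Counts were scaled by TMM and fitted with 1 mean per group by edgeR 4.0.16 (R 4.3.3, robust quasi-likelihood test, two-sided), with Benjamini-Hochberg adjustment over all genes of the fit. The SE beside an edgeR log2 fold change is that change, without its sign, divided by the square root of the test's F statistic. Liver Veh HPD replicate 4 was left out of liver and joint fits. Differences between tissues were tested as differences of contrasts in the joint fit of 31 libraries. That fit took all libraries as independent, so a mouse that gave both tissues would be an ignored pairing. Alternatives were RLE size factors, DESeq2 1.42.0, limma 3.58.1 voom, no filter, the replicate number as a block, the compared groups alone, the 16 liver libraries together, fits without 1 library at a time and, chosen after seeing the data, library totals without TMM. The scripts were tested on simulated counts. The RefSeq start windows are those of GRCm38.p6.

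The 10 genes and the wider lists were chosen with earlier results of these data known. From each wider list, up to 3 called genes per direction and comparison with the smallest p are named, and the 3 nearest genes for each called gene, except 2 genes that are not reported here. No pair among 48 replicate pairs held the same values. The labels do not say whether replicates were separate mice, so p-values measure only the spread between these samples. Intervals of counting error are given as floors alone (3 counts), and the depth of 8933307 to 18057936 counts per library limits the lowest genes.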

Additional observations from a re-analysis of the deposited data

Results flagged for a closer look

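Within 69 groups of 4 libraries (10 genes, both tissues), 8 had a library that stood apart by Dixon's criterion, which chance meets in about 1 group in 20. In liver these were Phgdh in Cort NPD replicate 3 (0.227 CPM), Psat1 in Cort NPD replicate 4 (3.22 CPM), Psph in Cort HPD replicate 2 (8.72 CPM) and Asns in Veh NPD replicate 1 (1.98 CPM), each the highest of its group, and Atf5 in Cort HPD replicate 1 (176 CPM), the lowest. In eWAT they were Psph in Veh HPD replicate 4 (23.1 CPM), Trib3 in Veh HPD replicate 3 (9.11 CPM) and Ddit3 in Veh HPD replicate 4 (39.2 CPM), each the highest. The rate of 1 in 20 holds for normally distributed values, which CPM near 0 are not. In liver Cort NPD, the Phgdh flag rests on 3 counts in replicate 3 and 0 in the other libraries of that group. The liver Veh HPD group, with 3 libraries, was not tested, since the criterion was applied to groups of 4 alone.

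The effect of Cort differed between liver and eWAT for 3 genes in edgeR's quasi-likelihood test. The difference was 2.14 on the log2 scale for Asns on NPD (adjusted p = 0.0048), -2.46 for Ddit3 on HPD (adjusted p = 1.4e-04) and -2.43 for Trib3 on HPD (adjusted p = 0.014). Without liver Veh HPD replicate 2, the values for Ddit3 and Trib3 were -1.63 (adjusted p = 7.0e-04) and -1.10 (adjusted p = 0.16).

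Liver Veh HPD replicate 4, used in no main comparison, held the highest level of all 16 liver libraries for 6 of the 10 genes: Phgdh (0.948 CPM), Psat1 (18.2 CPM), Psph (16.5 CPM), Asns (29.1 CPM), Atf4 (210.3 CPM) and Ddit3 (80.5 CPM). Trib3 was at 87.4 CPM there, Chac1 at 7.73 CPM, Atf5 at 284 CPM and Sesn2 at 5.54 CPM. The same library had the lowest hepatocyte marker sum (40781 CPM) and the highest exocrine pancreas sum (149.9 CPM) of the liver libraries, and their part in these levels was not tested.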

How the results depend on the processing

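Counts are of the 10 genes called. In liver, Cort on NPD called 1 with all 16 libraries and 3 with DESeq2, against 2. HPD in Veh liver, with 1, called 0 with RLE size factors, limma voom, the compared groups alone or all 16 libraries, and 3 with DESeq2. The liver interaction called 1 with DESeq2. In eWAT, Cort on NPD called 0 with library totals or without a filter, Cort on HPD called 2 with DESeq2, and HPD in Cort called 1 with the compared groups alone. The tissue difference for Cort on NPD called 3 with DESeq2, 2 with the replicate block, 2 with the compared groups alone and 0 with limma voom or all 16 liver libraries. The tissue difference for Cort on HPD called 1 with limma voom or the compared groups alone. Leaving out each library gave 1 to 3 calls for Cort on NPD, 2 to 3 for Cort on HPD, 0 to 2 for HPD in Veh and 0 to 0 for HPD in Cort and the interaction in liver. In eWAT it gave 0 to 2 for Cort on NPD, 1 to 1 for Cort on HPD, 0 to 1 for HPD in Veh and 0 to 0 for HPD in Cort and the interaction. For the tissue differences it gave 1 to 2 for Cort on NPD, 1 to 3 for Cort on HPD and 0 to 0 for diet in Cort. Beyond what fewer samples or genes bring, the cause was not tested.

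Within a tissue, same-numbered libraries of different groups correlated by -0.131 to 0.161 in liver (21 pairs, 3 over 0.1) and -0.115 to 0.253 in eWAT (24 pairs, 1 over 0.1). The numbers were therefore not taken as pairs within a tissue. No such correlation was taken between liver and eWAT libraries. The replicate block gave 3 calls for Cort on NPD, 2 for Cort on HPD and 1 for HPD in Veh in liver. Library totals moved the median of all genes by -0.239 (log2) for Cort on HPD in liver. Of 104 gene results called in no fit, 43 changed sign in at least 1 alternative. Depth limits Phgdh and Psat1 in liver.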

Other observations

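The kinases that phosphorylate eIF2alpha, and their partners, were called in few comparisons. Of 13 tested in each tissue, HPD in Cort-treated liver raised 1 (all genes: 3.08%), Eif2ak2, the kinase that senses double-stranded RNA (1.34, SE 0.30, adjusted p = 0.010). In eWAT, Cort on NPD raised 1 (all genes: 4.05%), Impact, a brake on the kinase GCN2 (0.65, SE 0.15, adjusted p = 0.0050), and this effect was lower in liver than in eWAT, with a difference of -1.16 (adjusted p = 0.011). Values are log2 fold changes, and all calls are edgeR's quasi-likelihood test.

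Of 15 genes of the other branches of the unfolded protein response, those of ATF6 and XBP1, Cort called 2 on NPD and 1 on HPD in liver and 1 on NPD in eWAT, where 12.6%, 9.89% and 7.98% of all genes were called, so these shares are near those of all genes. Xbp1 itself fell with Cort in liver on NPD (-0.82, SE 0.19, adjusted p = 0.0073) and HPD (-1.03, SE 0.21, adjusted p = 0.0026). Its level was 193, 113 and 196 CPM in Veh HPD and 89.1, 81.1, 72.0 and 85.2 CPM in Cort HPD. Ern1, which encodes the sensor IRE1alpha that splices Xbp1 mRNA, rose with Cort on NPD (0.78, SE 0.20, adjusted p = 0.011). In Cort-treated liver, HPD lowered 1 of the 15 (all genes: 2.8%), Calr, an ER chaperone (-0.81, SE 0.17, adjusted p = 0.0076). In eWAT, Cort on NPD raised Atf6 (0.74, SE 0.17, adjusted p = 0.0043).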
